A study of Mus musculus with 25 samples.

Results

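The receptors described here are 9 mouse genes, taken by name: *Ccr1*, *Ccr2*, *Cx3cr1*, *Cxcr4*, *Cxcr6*, *Ackr1*, *Ackr3*, *Cmklr1* and *Ccrl2*. All 9 were found among the 54752 genes counted in each of 25 RNA-seq libraries, 14 from epididymal white adipose tissue (eWAT) and 11 from inguinal white adipose tissue (iWAT) of male C57BL/6N mice. In each depot, wild type (WT) mice on normal chow (ND), WT mice on a high-fat diet (HFD) and *Acod1*-/- mice on the same HFD were sampled, giving 4, 5 and 5 libraries in eWAT and 3, 5 and 3 in iWAT. The HFD held 60% of its calories as fat and started at 5 weeks of age, and the labels give 16 weeks of diet for every library except iWAT *Acod1*-/- HFD 2 and 3, which have 17 and 18. The knockouts carry a germline deletion of *Acod1*, the enzyme that makes itaconate, in every cell of the body, and WT littermates from heterozygous crosses served as controls. ND-fed knockouts are not analysed here, so the diet was compared in WT mice only. Nothing in the labels says whether an eWAT and an iWAT library came from the same mouse, and replicates are taken as labelled, so p-values measure the spread between these libraries, which may be technical in part.

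Chemokine receptors are seven-pass membrane proteins that steer leukocytes along gradients of chemokines, the small proteins that tissues and leukocytes secrete. The typical ones (*Ccr1*, *Ccr2*, *Cx3cr1*, *Cxcr4* and *Cxcr6*) signal through G proteins, whereas the atypical ones (*Ackr1* and *Ackr3*) bind chemokines without that signal and scavenge or transport them. *Cmklr1* is the signalling receptor for chemerin, a chemoattractant that fat itself secretes, and *Ccrl2* binds chemerin without signalling. In obese fat, *Ccr2* is best known as the receptor through which monocytes enter the depot in answer to *Ccl2*.

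The letters around the start of 4 of the genes are shown because these genes were called in opposite directions with the HFD, *Cxcr4* against *Ackr3* in iWAT and *Ccr2* against *Cmklr1* in eWAT. The call of *Cmklr1* came with overlapping groups and was lost in several alternative fits given below. Both iWAT calls are against ND libraries that had high lymph node markers. They run 5′ to 3′ on the gene's own strand from 250 bases before to 50 bases after the RefSeq start site (GRCm38.p6). In *Cxcr4* and *Ackr3*, the pair of CXCL12 receptors, capitals mark TATAAA. In *Cmklr1* capitals mark GAGGAA, the core letters that the myeloid factor PU.1 prefers, and *Ccr2* holds neither word on either strand and is in lower case throughout.
*Cxcr4* promoter, chr1:128592250-128592549, minus strand: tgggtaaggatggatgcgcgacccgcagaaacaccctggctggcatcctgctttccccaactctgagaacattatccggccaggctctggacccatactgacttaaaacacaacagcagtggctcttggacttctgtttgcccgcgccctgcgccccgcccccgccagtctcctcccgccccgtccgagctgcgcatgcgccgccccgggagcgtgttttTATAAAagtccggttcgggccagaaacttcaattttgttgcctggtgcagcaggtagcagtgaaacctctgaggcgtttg
*Ackr3* promoter, chr1:90203730-90204029, plus strand: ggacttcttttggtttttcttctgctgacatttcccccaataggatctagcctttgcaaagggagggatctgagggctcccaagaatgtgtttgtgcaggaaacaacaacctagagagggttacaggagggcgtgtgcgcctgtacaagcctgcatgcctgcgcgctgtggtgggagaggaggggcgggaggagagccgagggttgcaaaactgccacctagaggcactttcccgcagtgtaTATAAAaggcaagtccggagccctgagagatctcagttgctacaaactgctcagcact
*Ccr2* promoter, chr9:124101933-124102232, plus strand: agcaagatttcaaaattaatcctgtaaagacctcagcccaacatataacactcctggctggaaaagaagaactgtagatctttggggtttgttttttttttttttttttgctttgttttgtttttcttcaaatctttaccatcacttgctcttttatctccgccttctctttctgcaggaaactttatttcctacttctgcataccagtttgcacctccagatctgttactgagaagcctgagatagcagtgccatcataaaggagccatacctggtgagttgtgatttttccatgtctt
*Cmklr1* promoter, chr5:113643554-113643853, minus strand: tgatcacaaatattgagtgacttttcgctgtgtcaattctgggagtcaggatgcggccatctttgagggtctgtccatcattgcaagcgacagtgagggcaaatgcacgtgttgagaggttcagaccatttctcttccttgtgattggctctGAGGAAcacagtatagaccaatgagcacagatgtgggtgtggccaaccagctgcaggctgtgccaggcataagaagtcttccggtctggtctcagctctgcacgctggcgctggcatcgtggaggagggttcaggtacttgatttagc

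TATAAA or its reverse complement TTTATA was present in 2 of the 9 members, *Cxcr4* and *Ackr3*, and in 13.6% of 32851 mouse promoters of the same 300 bases. The word began 30 bases before the start site in *Cxcr4*, where TTTATA overlaps it, and 8 bases before it in *Ackr3*. GAGGAA or TTCCTC was present in 2 members, *Ccr1* and *Cmklr1*, and in 28.3% of all promoters. These matches describe the letters in these windows only.

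Some libraries stood apart in markers of other tissues. The 3 iWAT ND libraries had high lymphocyte and lymph node markers: 8 T cell markers summed to between 302 and 478 CPM (a gene's share of the library's reads after TMM scaling) against 7.29 to 80.6 in WT HFD and 3.03 to 13.9 in *Acod1*-/- HFD libraries of iWAT. The matching ranges were 413 to 637, 2.75 to 42.6 and 1.28 to 4.80 CPM for 4 B cell markers, and 260 to 428, 1.33 to 22 and 0.789 to 4.78 CPM for 5 lymph node markers. In eWAT the 8 T cell markers summed to 6.98 to 31.0 CPM. The 4 B cell markers summed there to 1.75 to 35.0 CPM and the 5 lymph node markers to 2.39 to 57.0 CPM. Both of these were highest in eWAT *Acod1*-/- HFD 4. Epididymis markers reached 6657 CPM in eWAT ND 2 and 940 CPM in eWAT *Acod1*-/- HFD 5, skeletal muscle markers 5390 CPM in iWAT ND 1, and skin or mammary markers 525 CPM in iWAT *Acod1*-/- HFD 2. The 6 adipocyte markers summed to between 19075 and 48370 CPM in all libraries. Between 31405063 and 52335623 reads per library fell on genes. *Acod1* had at most 9 reads in any library and at most 2 in an *Acod1*-/- library, so it could not check the genotypes. Library numbers in the file headers fall into 2 series: all ND libraries and 1 library of each HFD group have the higher numbers and the other HFD libraries the lower ones. That series was entered as a term in an alternative fit.

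Compared per transcript length, *Cmklr1* had the highest group mean of the 9 in every group. In eWAT of ND mice its mean was 42.3 ± 13.0 FPKM (SD, n = 4), followed by *Ackr3* at 9.98 ± 2.96, *Cxcr4* at 3.96 ± 0.489 and *Ccr2* at 3.64 ± 1.67 FPKM. The other 5 lay between 0.635 (*Cxcr6*) and 1.68 FPKM (*Ccr1*). From *Cxcr4* downward each gene overlapped the next one in its range over libraries, while *Cmklr1* and *Ackr3* were each clear of the next. In iWAT of ND mice the order was different, with *Cxcr4* next after *Cmklr1* at 21.8 ± 7.90 FPKM (n = 3), then *Cxcr6* at 6.75 ± 1.99 and *Ackr3* at 4.46 ± 1.32. There the ranges of *Cmklr1* and *Cxcr4* overlapped, and in ND 2 *Cxcr4* was the higher of the pair (29.6 against 25.4 FPKM). On HFD *Ackr3* had the next highest mean after *Cmklr1* in all 4 groups. In eWAT of WT HFD mice its range overlapped that of *Ccr2*, and single libraries departed from the order of the means: *Cxcr4* (20.96 FPKM) exceeded *Ackr3* (7.82 FPKM) and was level with *Cmklr1* (20.94 FPKM) in library 1, and *Ccr2* (11.7 FPKM) exceeded it (9.36 FPKM) in library 2. In eWAT of *Acod1*-/- HFD mice *Ccr2* (12.4 FPKM) exceeded *Ackr3* (10.6 FPKM) in library 5. Across the 6 groups of a gene, compared in CPM, 41 of the 45 neighbouring pairs of group means overlapped in their ranges. The 4 that did not were *Ccr1* and *Ackr3* in iWAT of *Acod1*-/- HFD above ND mice, *Cx3cr1* in ND iWAT above ND eWAT, and *Cxcr6* in ND iWAT above WT HFD eWAT.

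**Figure D1:**
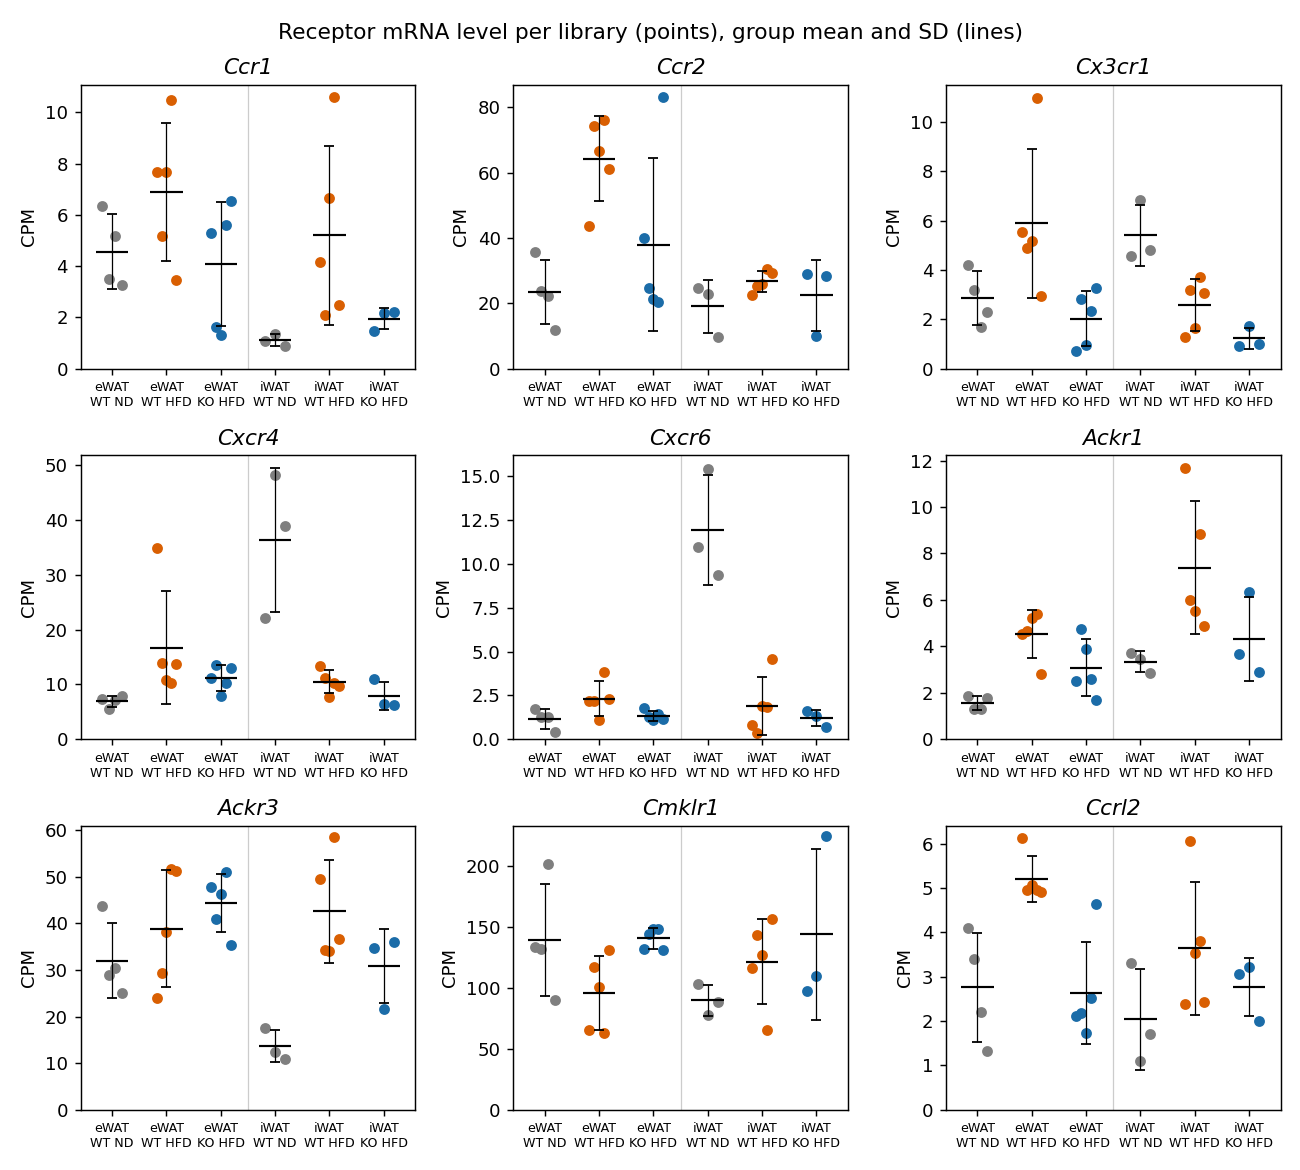
Level of each of the 9 receptors in the 25 libraries, in CPM (linear axes from 0), with eWAT left and iWAT right of the grey line. Points are libraries, horizontal bars are group means and error bars are SD; the 3 iWAT ND libraries are the highest for *Cxcr6*, those of *Cxcr4* lie at 22.2 to 48.1 CPM with eWAT WT HFD 1 among them at 34.8, and *Ccrl2* lies between 4.91 and 6.14 CPM in all 5 eWAT WT HFD libraries.

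With HFD in WT eWAT, 6 of the 9 receptors rose (*Ackr1*, *Ccr2*, *Cxcr4*, *Cx3cr1*, *Cxcr6* and *Ccrl2*), *Cmklr1* fell, and *Ccr1* and *Ackr3* did not pass the test. With the library series as a term, which sets all ND libraries on one side, 3 of these calls remained (*Ccr2*, *Cxcr4* and *Ccrl2*), all higher, and those of *Ackr1*, *Cx3cr1*, *Cxcr6* and *Cmklr1* were lost. In iWAT *Ccr1*, *Ackr3* and *Ackr1* rose with the same diet and *Cxcr4*, *Cxcr6* and *Cx3cr1* fell. With the series term the calls of *Ackr1* and *Cx3cr1* were lost there and *Cmklr1* was called higher (1.12, adjusted p = 0.0247). Between *Acod1*-/- and WT mice on HFD, *Cx3cr1* and *Ccrl2* were lower in knockout eWAT, and no receptor passed in iWAT. The diet and genotype comparisons of a depot share its WT HFD libraries, so opposite changes in this pair of comparisons are not independent. Calls are an adjusted p under 0.1 in edgeR's quasi-likelihood test, adjusted over all genes of the fit. Against these counts stand the shares of all tested genes: 51.8% were called with diet in eWAT (24.8% higher, 26.9% lower), 50.1% with diet in iWAT (25.9% higher, 24.2% lower) and 19.9% with genotype in eWAT (9.13% higher, 10.8% lower). Calls thus reached 7 of 9 and 6 of 9 members with diet and 2 of 9 with genotype. Groups did not overlap for 4 members with diet in eWAT (35.2% of all genes), 6 with diet in iWAT (47.1%), 2 with genotype in eWAT (7.14%) and 0 with genotype in iWAT (8.26%). In bulk tissue, a change in the number of cells of a type and a change in the RNA of a gene per cell cannot be told apart. The median log2 fold change of the 9 was 0.99 with diet in eWAT against -0.04 over all genes, and -0.75 with genotype against 0.04. In iWAT these medians were 0.53 against 0.00 for diet and -0.48 against -0.01 for genotype. In iWAT 0 of 14801 genes were called with genotype by edgeR (0%), 3 of the 9 members (*Ccr1*, *Cx3cr1*, *Ackr1*) had an unadjusted p under 0.05, and DESeq2's Wald test called 1, *Ccr1* (adjusted p = 0.0931).

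**Figure D2:**
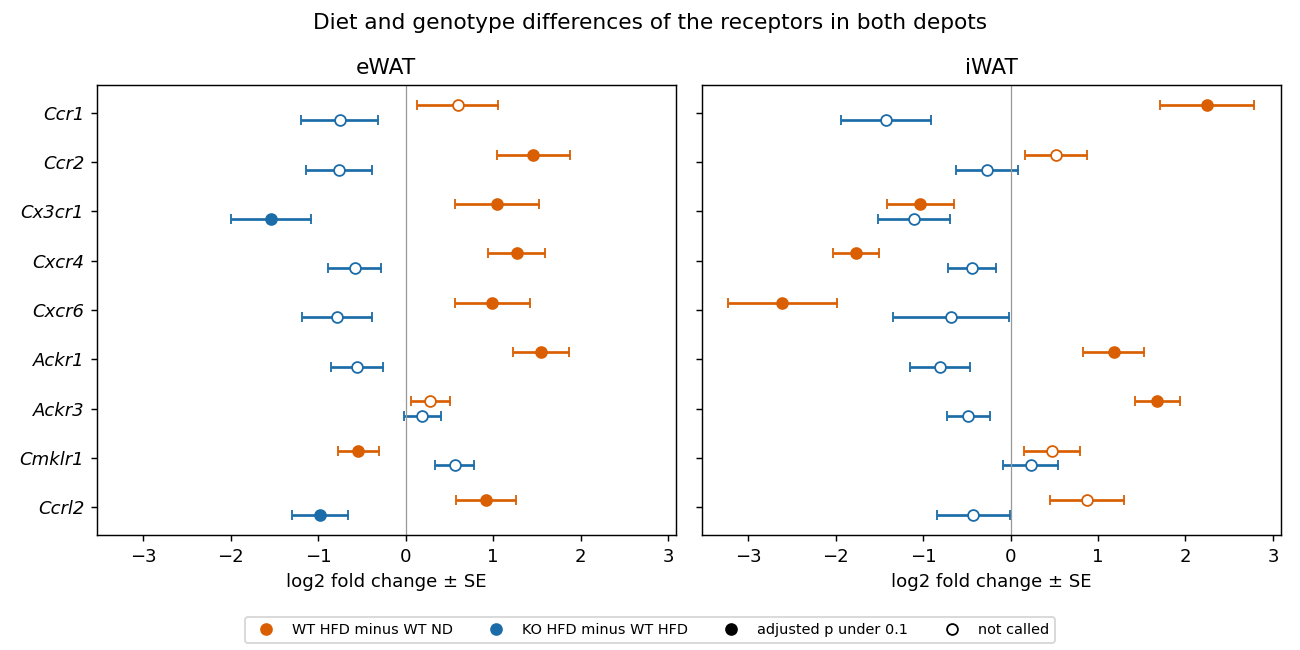
Fitted log2 fold change and its SE for the 9 receptors in eWAT (left) and iWAT (right), for diet in WT mice (orange) and for genotype on HFD (blue); filled points have an adjusted p under 0.1. In eWAT the orange points of 6 receptors are filled to the right of 0, and in iWAT those of *Cxcr4*, *Cxcr6* and *Cx3cr1* are filled to its left.

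*Ccr2*, the monocyte receptor for *Ccl2* and *Ccl7*, rose with HFD in eWAT. The ND libraries held 35.7, 23.7, 22.4 and 11.8 CPM and the WT HFD libraries 43.8, 74.2, 66.5, 76.0 and 61.0 CPM. Every HFD library was above every ND library, and the log2 fold change was 1.46 ± 0.41 (SE, adjusted p = 0.0129). In *Acod1*-/- eWAT on HFD the levels were 40.1, 24.7, 21.3, 20.5 and 83.2 CPM. Replicates 1 to 4 were below all WT HFD libraries and replicate 5 was above all of them, so the groups overlapped and the difference did not pass (-0.76 ± 0.38, adjusted p = 0.201). Without replicate 5, which also had high epididymis markers and the highest summed macrophage markers of its group (1085 CPM), the difference was -1.28 with an adjusted p of 0.00884. In iWAT *Ccr2* was between 9.69 and 30.5 CPM in all groups, with 24.6, 22.9 and 9.69 CPM on ND and 22.5 to 30.5 CPM in WT HFD mice, and neither diet (0.53 ± 0.35, adjusted p = 0.254) nor genotype (-0.27 ± 0.35, adjusted p = 0.753) passed. Within WT HFD mice eWAT exceeded iWAT by 1.27 ± 0.37 (log2, adjusted p = 0.0275), with no overlap between the depots.

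Most macrophage markers were higher on HFD in eWAT, as *Ccr2* was. In eWAT the sum of 8 such markers was 431 to 750 CPM on ND, 997 to 3390 CPM in WT HFD and 313 to 1085 CPM in *Acod1*-/- HFD libraries, with 7 of 8 called higher and 1 lower with diet and 7 of 8 lower with genotype. Over all genes of eWAT, 24.8% were called higher and 26.9% lower with diet and 10.8% lower with genotype. In iWAT 5 of the 8 were called higher with diet (25.9% of all genes). Their sum there was 422 to 519 CPM on ND and 366 to 890 CPM in WT HFD libraries, which overlapped. In iWAT *Acod1*-/- HFD libraries it was 249 to 342 CPM. The part of the macrophage markers in the change of *Ccr2* was not tested. The ligands of *Ccr2* were also higher on HFD in eWAT, *Ccl2* by 3.26 ± 0.60 (log2, adjusted p = 0.00129) and *Ccl7* by 3.10 ± 0.56 (adjusted p = 0.00119), and both were lower in *Acod1*-/- eWAT (-1.58 ± 0.51, adjusted p = 0.0584, and -1.90 ± 0.49, adjusted p = 0.0257), the call of *Ccl2* being lost without WT HFD 4 or *Acod1*-/- HFD 1, 2 or 3. In iWAT *Ccl2* and *Ccl7* rose with diet as well, by 3.06 ± 0.70 (adjusted p = 0.00553) and 3.09 ± 0.59 (adjusted p = 0.00196), while *Ccr2* itself did not pass.

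*Ccr1*, a receptor of neutrophils, monocytes and macrophages for *Ccl3*, *Ccl5*, *Ccl6* and *Ccl9*, rose with HFD in iWAT. The iWAT ND libraries held 1.10, 1.36 and 0.885 CPM, the WT HFD libraries 4.15, 2.11, 6.67, 10.6 and 2.48 CPM and the *Acod1*-/- HFD libraries 1.49, 2.18 and 2.21 CPM. All WT HFD libraries were above all ND libraries (2.25 ± 0.54, adjusted p = 0.00696). The knockouts were within or below the WT HFD range and did not pass against it (-1.43 ± 0.52, adjusted p = 0.209). In eWAT *Ccr1* was already at 6.35, 3.49, 5.16 and 3.27 CPM on ND, 2.03 ± 0.58 above iWAT ND on the log2 scale (adjusted p = 0.0135), without overlap. The HFD groups of eWAT ran from 3.46 to 10.5 CPM in WT and from 1.33 to 6.55 CPM in *Acod1*-/- mice, and neither diet (0.59 ± 0.47, adjusted p = 0.316) nor genotype (-0.75 ± 0.44, adjusted p = 0.274) passed. Of its ligands, *Ccl6* and *Ccl9* rose with diet in both depots. *Ccl9* rose by 2.32 ± 0.49 in eWAT (adjusted p = 0.00284) and by 2.38 ± 0.35 in iWAT (adjusted p = 0.000546). *Ccl6* rose by 1.29 ± 0.50 (adjusted p = 0.0496, lost without ND 2, ND 4 or WT HFD 4) and 1.82 ± 0.36 (adjusted p = 0.00234). *Ccl5* went opposite ways, with tests given below. Its mean rose from 3.48 to 12.1 CPM in eWAT and fell from 61.1 to 9.3 CPM in iWAT, where *Ccr1* rose. The ND libraries of iWAT had high lymph node markers, whose part in that fall was not tested. Mean *Ccl3* was 0.286 CPM on ND and 5.16 CPM in WT HFD eWAT, and 0.407 and 0.903 CPM in iWAT. *Ccr1* is a near copy of *Ccr3* over parts of its sequence, and since only uniquely aligned reads were counted, reads that fit both would have been left out. The same holds for *Ccr2*, parts of whose sequence have near copies in its family.

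*Cx3cr1*, the fractalkine receptor of patrolling monocytes, resident macrophages and some lymphocytes, was the receptor with the largest genotype difference in eWAT. The libraries held 4.22, 3.20, 1.69 and 2.32 CPM on ND, 5.53, 4.89, 5.16, 11 and 2.94 CPM in WT HFD and 0.722, 2.83, 0.980, 2.35 and 3.26 CPM in *Acod1*-/- HFD mice. WT HFD 5, the lowest of its group, overlapped the knockouts and the ND libraries. The knockouts were 1.54 ± 0.46 lower on the log2 scale (-1.54, adjusted p = 0.0439), a call that was lost without WT HFD 4 (adjusted p = 0.121). The rise with diet was 1.05 ± 0.48 (adjusted p = 0.0938) and was lost in 8 of the 14 fits that left out 1 library (without ND 2, 3 or 4, WT HFD 1, 2, 3 or 4, or *Acod1*-/- HFD 4, adjusted p up to 0.256) and with the library series as a term (1.13, adjusted p = 0.259).

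In iWAT *Cx3cr1* went the other way with diet. The ND libraries held 4.57, 6.83 and 4.81 CPM, the WT HFD libraries 1.27, 3.18, 1.67, 3.73 and 3.06 CPM and the knockouts 0.926, 1.74 and 1.02 CPM. All HFD libraries were below all ND libraries, by -1.03 ± 0.38 in WT (adjusted p = 0.0494) and -2.13 ± 0.46 in *Acod1*-/- mice (adjusted p = 0.00614). Without ND 2 the WT call was lost (adjusted p = 0.184), as it was with the library series as a term (-0.98, adjusted p = 0.199). The 3 ND libraries are those with high lymph node markers, whose part in the difference was not tested. The ligand *Cx3cl1*, made by endothelium, did not pass with diet in either depot and was lower in *Acod1*-/- than WT eWAT by -0.96 ± 0.35 (adjusted p = 0.0905), from 2.56 to 6.66 CPM in WT HFD to 0.896 to 2.95 CPM in knockout libraries, a call lost without ND 1 or 4, WT HFD 1, 2 or 4, or *Acod1*-/- HFD 1, 3 or 4. In the annotation *Cx3cr1* shares exon positions with the antisense gene *Gm33858*, and whether counting used strand is not given in the sources used here.

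*Cxcr4* and *Ackr3* share the ligand *Cxcl12*, a chemokine of stromal cells that holds leukocytes in place, *Cxcr4* as the signalling receptor and *Ackr3* as its scavenger. In eWAT *Cxcr4* was at 7.34, 5.49, 7.10 and 7.82 CPM on ND and at 34.8, 13.9, 10.8, 10.3 and 13.7 CPM in WT HFD mice. The lowest HFD library was above the highest ND library (1.27 ± 0.33, adjusted p = 0.00833). WT HFD 1 stood far above the rest of its group, and without it the change was 0.81, still called. The knockouts held 11.1, 13.6, 7.82, 10.2 and 13.0 CPM and overlapped both WT groups (genotype -0.58 ± 0.30, adjusted p = 0.218). In iWAT the ND libraries were at 22.2, 48.1 and 38.9 CPM, the WT HFD libraries at 13.4, 11.2, 7.78, 10.3 and 9.78 CPM and the knockouts at 10.9, 6.47 and 6.26 CPM. No HFD library reached the ND range, and the fall was -1.76 ± 0.26 in WT (adjusted p = 0.000546) and -2.20 ± 0.31 in *Acod1*-/- mice (adjusted p = 0.000687).

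*Ackr3* moved in the opposite direction in iWAT. It held 17.6, 12.4 and 11 CPM on ND, 49.6, 34.2, 34.0, 58.5 and 36.6 CPM in WT HFD and 34.8, 21.7 and 36.1 CPM in *Acod1*-/- HFD libraries. All HFD libraries exceeded all ND libraries, by 1.68 ± 0.26 in WT (adjusted p = 0.000649) and by 1.19 ± 0.27 in *Acod1*-/- mice (adjusted p = 0.00884), and the genotypes overlapped (-0.48 ± 0.24, adjusted p = 0.350). In eWAT it held 43.7, 28.9, 30.4 and 25.1 CPM on ND, 24.1, 29.4, 38.1, 51.7 and 51.2 CPM in WT HFD and 35.4 to 51.1 CPM in *Acod1*-/- HFD libraries. These groups overlapped and neither diet (0.28 ± 0.23, adjusted p = 0.326) nor genotype (0.19 ± 0.21, adjusted p = 0.597) passed.

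The diet changes of *Cxcr4* and *Ackr3* differed between depots. The diet change of *Cxcr4* was 3.06 ± 0.45 higher in eWAT than iWAT (log2 interaction, adjusted p = 6.51e-05) and that of *Ackr3* was lower by -1.36 ± 0.35 (adjusted p = 0.00805). On ND alone *Cxcr4* was -2.39 ± 0.35 lower (adjusted p = 4.15e-05) and *Ackr3* 1.23 ± 0.28 higher (adjusted p = 0.00248) in eWAT than iWAT. The ratio of the pair within each library was examined after these values were seen. Per length (FPKM), *Cxcr4* exceeded *Ackr3* in all 3 iWAT ND libraries, with ratios of 2.34, 7.19 and 6.57, and was below it in all 5 WT HFD (0.325 to 0.608) and all 3 knockout libraries (0.321 to 0.580) of iWAT. For diet in iWAT the mean log2 ratio differed by -3.38 (two-sided exact permutation p = 0.0357, the smallest possible here, 0.0952 adjusted over 8 tests of such ratios). In eWAT the ratio was above 1 in WT HFD 1 alone (2.68), and the groups overlapped (exact permutation p = 0.143 for diet, 0.262 for genotype). B and T lymphocytes carry *Cxcr4*, and the lymph node markers of the 3 iWAT ND libraries moved with each of these differences. Their part was not tested. The ligand *Cxcl12* did not pass with diet in eWAT (-0.03 ± 0.24, adjusted p = 0.932) or iWAT (-0.24 ± 0.21, adjusted p = 0.381), and was lower in *Acod1*-/- than WT eWAT (-0.72 ± 0.23, adjusted p = 0.0542), a call lost without WT HFD 4 or *Acod1*-/- HFD 4.

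**Figure D3:**
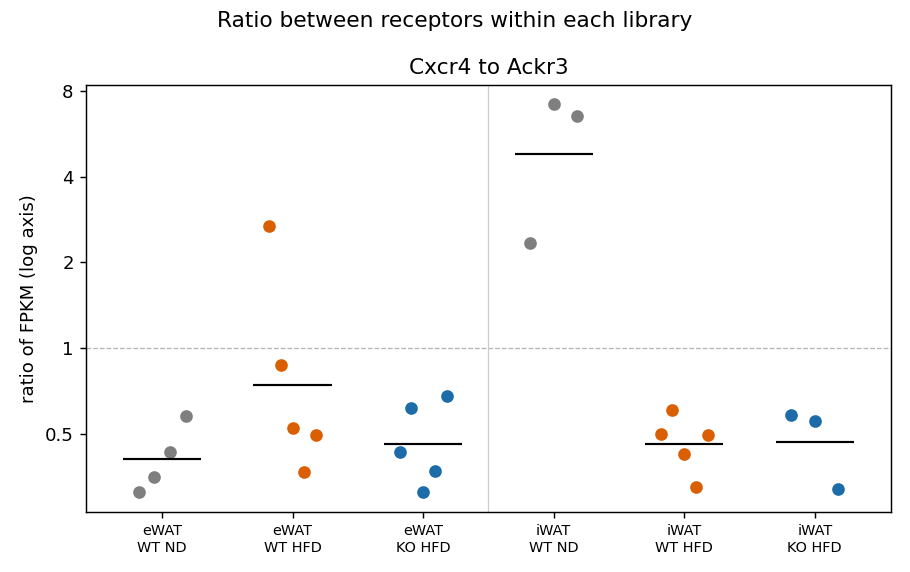
FPKM ratio of *Cxcr4* to *Ackr3* in each library, on a log axis, with the mean of the log ratios of a group as a bar and a dashed line at 1. The 3 iWAT ND libraries lie at 2.34 to 7.19 and eWAT WT HFD 1 at 2.68, and all other libraries lie under 1.

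*Cxcr6*, the receptor of tissue-resident T and natural killer cells for *Cxcl16*, was highest in the iWAT ND libraries. They held 11, 15.4 and 9.40 CPM, against 0.80, 0.331, 1.92, 1.82 and 4.58 CPM in WT HFD and 1.59, 1.33 and 0.728 CPM in *Acod1*-/- HFD libraries of iWAT. No HFD library reached the ND range, and the fall was -2.61 ± 0.62 in WT (adjusted p = 0.00680) and -3.29 ± 0.77 in *Acod1*-/- mice (adjusted p = 0.00979). WT HFD 5, the highest HFD library of iWAT, also had the highest T cell markers of the HFD libraries (80.6 CPM summed), and without it the WT change was -3.26. In eWAT the gene held 1.70, 1.29, 1.28 and 0.389 CPM on ND, 2.20, 2.19, 1.07, 3.83 and 2.29 CPM in WT HFD and 1.12 to 1.77 CPM in knockout libraries. Its rise with diet there, 0.99 ± 0.43 (adjusted p = 0.0776), rested on overlapping groups and was lost in 6 of 14 fits without 1 library (ND 2, 3 or 4 or WT HFD 2, 4 or 5, adjusted p up to 0.196) and with the library series as a term (0.87, adjusted p = 0.287). The genotypes overlapped in eWAT and did not differ past the threshold (-0.79 ± 0.40, adjusted p = 0.210). The depots differed in the diet change by 3.64 ± 0.77 (adjusted p = 0.00190) and on ND by -3.35 ± 0.61 (adjusted p = 0.000397).

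*Cxcl16*, the ligand, rose with diet in eWAT and fell in iWAT, as the calls of its receptor did. In eWAT it rose with diet by 1.38 ± 0.34 (adjusted p = 0.00660) from 7.88 to 18.3 CPM on ND to 18.1 to 43.3 CPM, and was lower in knockouts (-1.46 ± 0.32, adjusted p = 0.0149), where it held 6.47 to 15.9 CPM. In iWAT it fell with diet from 23.8 to 32.5 CPM to 5.36 to 14.4 CPM (-1.46 ± 0.26, adjusted p = 0.00156). Over all 25 libraries *Cxcr6* followed the summed T cell markers more closely than the other 8 receptors did, with a Pearson r of 0.91 on log2 values and of 0.74 for the deviations from the group means, against 0.72 and -0.01 for *Cxcr4* and 0.53 and 0.45 for *Cx3cr1*. The points share libraries, groups and the 3 iWAT ND libraries at the far end. The part of lymph node T cells in the lower *Cxcr6* was not tested.

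**Figure D4:**
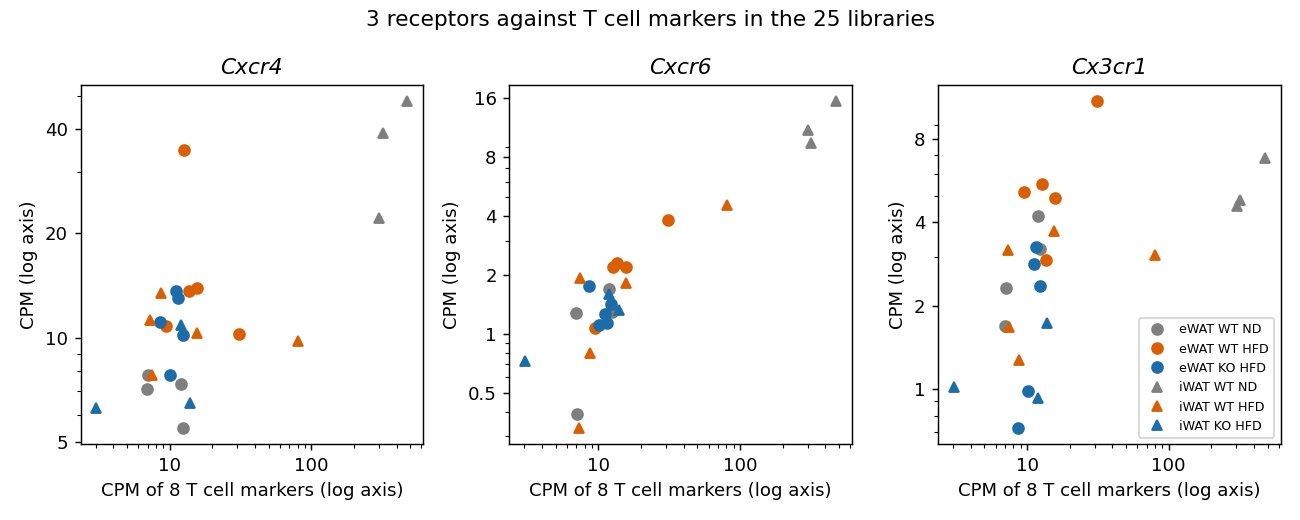
Level of *Cxcr4*, *Cxcr6* and *Cx3cr1* (CPM, log axes) against the summed CPM of 8 T cell markers (log axis) in the 25 libraries, circles for eWAT and triangles for iWAT. The 3 iWAT ND libraries (grey triangles) lie at 302 to 478 summed CPM, apart from all others, and for *Cxcr6* the next in line on the marker axis is iWAT WT HFD 5 at 80.6.

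*Ackr1*, the Duffy antigen that displays CC and CXC chemokines on venular endothelium and red blood cells, rose with HFD in both depots. In eWAT it went from 1.84, 1.29, 1.28 and 1.77 CPM on ND to 4.53, 4.68, 5.21, 5.40 and 2.79 CPM in WT HFD libraries, without overlap (1.55 ± 0.32, adjusted p = 0.00267). In iWAT it went from 3.70, 3.46 and 2.84 CPM to 11.7, 6.01, 5.53, 8.86 and 4.86 CPM, again without overlap (1.18 ± 0.35, adjusted p = 0.0197). With the library series as a term the rise was 0.77 in eWAT (adjusted p = 0.112) and 0.59 in iWAT (adjusted p = 0.277), and neither was called. The knockouts held 2.51, 4.75, 3.89, 2.59 and 1.67 CPM in eWAT and 3.68, 6.35 and 2.91 CPM in iWAT, overlapping WT HFD in both depots (-0.56 ± 0.29, adjusted p = 0.230, and -0.81 ± 0.34, adjusted p = 0.272). Of the 9 it was the receptor still called above ND in knockout eWAT (0.99 ± 0.32, adjusted p = 0.0496), a call lost without ND 2, ND 3 or *Acod1*-/- HFD 2 (adjusted p up to 0.122) and with the series term (0.20, adjusted p = 0.762). On ND iWAT held more than eWAT (-1.11 ± 0.36 for eWAT, adjusted p = 0.0268). Red blood cell markers summed to 587 to 1462 CPM on ND and 201 to 571 CPM in WT HFD eWAT, and to 384 to 551 and 194 to 464 CPM in iWAT. General endothelial markers (5 genes) summed to 541 to 859 and 277 to 485 CPM in eWAT, with 4 of 5 called lower, and to 382 to 509 and 527 to 844 CPM in iWAT, with 5 of 5 called higher. *Selp*, which encodes P-selectin of venular endothelium and platelets, rose with diet in eWAT (0.73 ± 0.33, adjusted p = 0.0904, lost in 9 of 14 fits without 1 library: ND 3 or 4, WT HFD 1, 2, 3 or 5, or *Acod1*-/- HFD 1, 4 or 5) and iWAT (2.13 ± 0.42, adjusted p = 0.00258), as *Ackr1* did. The part of these cells in the change of *Ackr1* was not tested. In the annotation *Ackr1* shares exon positions with *Cadm3* on the same strand, and reads there may not have been assigned.

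*Cmklr1*, the chemerin receptor of adipocytes and macrophages, fell with HFD in eWAT, alone among the 9. It held 133, 132, 202 and 90.7 CPM on ND, 65.6, 118, 101, 63.3 and 131 CPM in WT HFD and 132, 144, 149, 148 and 131 CPM in *Acod1*-/- HFD libraries. The fall of -0.54 ± 0.23 (adjusted p = 0.0760) came with overlapping groups and was lost without ND 2, ND 3 or WT HFD 1, 3 or 4 (adjusted p up to 0.290) and with the series term (-0.35, adjusted p = 0.445). All knockouts were above all WT HFD libraries by a small margin, yet the difference did not pass (0.56 ± 0.22, adjusted p = 0.115). It was called without ND 3, ND 4 or WT HFD 5, and among the HFD libraries of the lower-numbered series alone, where it was 0.71 (adjusted p = 0.0405). DESeq2's Wald test called 1 of the 9 higher with genotype in eWAT, where *Cmklr1* and *Ackr3* alone had positive differences by edgeR. The WT HFD libraries with the least *Cmklr1*, 1 and 4, had the highest macrophage markers (3390 and 2705 CPM summed), whose part was not tested. In iWAT it held 103, 77.6 and 89.0 CPM on ND, 116, 143, 127, 65.6 and 157 CPM in WT HFD and 97.4, 110 and 225 CPM in knockouts, all overlapping, and neither diet (0.47 ± 0.32, adjusted p = 0.255) nor genotype (0.23 ± 0.31, adjusted p = 0.763) passed. The diet changes differed between depots by -0.98 ± 0.40 (adjusted p = 0.0854), a call lost in 10 of 25 fits without 1 library (adjusted p up to 0.203), namely eWAT ND 1 and 3, eWAT WT HFD 1, 3 and 4, iWAT ND 2 and 3, and iWAT WT HFD 2, 3 and 5.

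*Ccrl2*, which presents chemerin to neighbouring cells, rose with HFD in eWAT and was lower in knockouts. It went from 4.10, 3.40, 2.22 and 1.32 CPM on ND to 6.14, 4.95, 5.07, 4.96 and 4.91 CPM in WT HFD mice and stood at 2.11, 2.18, 1.74, 2.51 and 4.63 CPM in *Acod1*-/- HFD mice. All WT HFD libraries were above all libraries of both other eWAT groups, although *Acod1*-/- HFD 5 came close. The diet change was 0.92 ± 0.35 (adjusted p = 0.0468, lost without ND 3 or 4, up to 0.124) and the genotype difference -0.98 ± 0.32 (adjusted p = 0.0637). The latter was lost without WT HFD 1 or 4 or *Acod1*-/- HFD 1, 2, 3 or 4 (adjusted p up to 0.142) and held with the series term (-1.06, adjusted p = 0.0480). *Ccrl2* and *Cmklr1* were the 2 receptors whose genotype groups did not overlap in eWAT. In iWAT *Ccrl2* ran from 1.11 to 6.06 CPM with overlap throughout, and neither diet (0.87 ± 0.43, adjusted p = 0.122, called without ND 1 or WT HFD 1) nor genotype (-0.43 ± 0.42, adjusted p = 0.653) passed. The ligand of both, chemerin (*Rarres2*), rose with diet by 1.02 ± 0.24 in eWAT (adjusted p = 0.00499), from 217 to 360 CPM to 319 to 768 CPM, and by 0.89 ± 0.15 in iWAT (adjusted p = 0.000992), and was at 433 to 653 CPM in knockout eWAT (-0.15 ± 0.22 against WT HFD, adjusted p = 0.689).

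Between *Acod1*-/- mice on HFD and WT mice on ND, 1 of the 9 was called in eWAT (26.5% of all genes) and 4 in iWAT (34.6%): *Ackr3* was higher and *Cx3cr1*, *Cxcr4* and *Cxcr6* were lower. Groups did not overlap for 0 of the 9 in eWAT (17.5% of all genes) and for 5 in iWAT (36.9%), *Ccr1* being the one not called. Between depots on ND, 5 were called (31.7% of all genes), with *Ccr1* and *Ackr3* higher and *Ackr1*, *Cxcr4* and *Cxcr6* lower in eWAT, and 6 did not overlap (35.9%). In WT HFD mice *Ccr2* and *Cx3cr1* were called (18.6% of all genes), both higher in eWAT, and *Ccr2* did not overlap (12.2%), *Cx3cr1* by 1.19 ± 0.42 (adjusted p = 0.0640, lost without eWAT WT HFD 1 or 4 or iWAT WT HFD 1 or 3, up to 0.218). In *Acod1*-/- HFD mice edgeR called 0 of the 9 between depots (3.81% of all genes), 0 did not overlap (5.92%), with 0 at an unadjusted p under 0.05 and 0 by DESeq2. The diet change differed between depots for 5 receptors (29.0% of all genes), namely *Cx3cr1*, *Cxcr4* and *Cxcr6*, whose change was higher in eWAT, and *Ackr3* and *Cmklr1*, whose change was lower. For *Cx3cr1* this difference was 2.11 ± 0.65 (adjusted p = 0.0234). The genotype difference did not differ between depots for any of the 9 by edgeR (0.00665% of all genes called), with 0 at an unadjusted p under 0.05 and 0 by DESeq2. All comparisons on ND iWAT include the libraries with high lymph node markers.

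Of 26 further chemoattractant receptors, 13 were expressed highly enough to be tested in eWAT, where 8 rose and 2 fell with diet and 6 were lower in knockouts (medians 1.57 and -1.32), where 24.8% of all genes were called higher and 26.9% lower with diet and 10.8% lower with genotype. Of the 13, *Ccr3* and *Ccr7* had means under 1 CPM on ND and in knockouts and passed through the WT HFD libraries alone. Their direction is thus not independent of the filter. The complement receptors *C3ar1* and *C5ar1* of myeloid cells changed in both comparisons, with 3.51 ± 0.64 (adjusted p = 0.00126) and 2.55 ± 0.44 (adjusted p = 0.000950) for diet and -2.94 ± 0.57 (adjusted p = 0.0114) and -2.43 ± 0.40 (adjusted p = 0.0110) for genotype. *S1pr1*, the sphingosine 1-phosphate receptor abundant on endothelium, fell with diet in eWAT (-1.10 ± 0.18, adjusted p = 0.000761). *Gpr183*, an oxysterol receptor of immune cells, rose by 2.79 ± 0.50 (adjusted p = 0.00116) in eWAT. In iWAT 16 passed the filter, with 5 higher and 8 lower on HFD (25.9% and 24.2% of all genes). Of the 16, *Ccr6*, *Ccr9*, *Cxcr5* and *Xcr1* had means under 1 CPM in both HFD groups. They passed through the ND libraries alone, so their direction, and with it the count of 8, is not independent of the filter. *C3ar1* (3.20 ± 0.49, adjusted p = 0.000649), *C5ar1* (2.61 ± 0.50, adjusted p = 0.00212) and *Ackr2*, a scavenger of CC chemokines on lymphatic endothelium (1.36 ± 0.34, adjusted p = 0.00908) were among those that rose. *Ccr7* (-4.62 ± 0.87, adjusted p = 0.00190), *Cxcr5* (-5.33 ± 0.85, adjusted p = 0.000787) and *Gpr183* (-2.35 ± 0.37, adjusted p = 0.000787), which guide lymphocytes within lymph nodes, were among those that fell. *Cxcr5* is also among the lymph node markers summed above, so its fall is not separate from theirs. *Ccr7* was at 32.8 to 54.5 CPM in the ND libraries of iWAT and at most at 6.24 CPM on HFD.

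Of 17 ligands, 15 passed in eWAT, where 13 rose with diet and 11 were lower in knockouts (medians 1.80 and -1.21), against 24.8% and 10.8% of all genes. Of the 15, *Ccl3* and *Ccl4* had means under 1 CPM on ND and in knockouts and passed through the WT HFD libraries alone. Their direction, and with it these counts and medians, is not independent of the filter. *Ccl11*, the eotaxin that attracts eosinophils, rose by 1.07 ± 0.23 in eWAT (adjusted p = 0.00308) and 1.74 ± 0.33 in iWAT (adjusted p = 0.00180), and *Mif* by 1.04 ± 0.13 in eWAT (adjusted p = 0.000225). *Ccl5*, made by T and natural killer cells, rose in eWAT (1.80 ± 0.38, adjusted p = 0.00283) and fell in iWAT (-2.67 ± 0.65, adjusted p = 0.00759). In iWAT 14 ligands passed the filter, of which 6 rose and 2 fell with diet (25.9% and 24.2% of all genes) and 0 were called with genotype by edgeR, with 6 at an unadjusted p under 0.05 and 4 called lower by DESeq2.

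The genes most like each receptor over the 25 libraries are given as a description, by Pearson r of log2 CPM and, in brackets, by r of the deviations from the group means. *Ccr1* was most like its ligand *Ccl6* at 0.92 (0.86) and then *Serpinb8* and *Alox5*, and *Ccr2* was most like *Ear2* at 0.88 (0.87), *Serping1* and *Clec4b1*. *Cxcr6* was most like the lymphocyte genes *Ltb* at 0.90 (0.75), *Cd2* and *Grap2*, and *Cxcr4* like *Rac2* at 0.88 (0.48), *Cnp* and *Coro1a*. *Cx3cr1* was most like *Gm5547* at 0.86 (0.64), *Bcl2a1a* and *Arap1*, and *Ccrl2* like *Micall2* at 0.85 (0.73), *Gpnmb* and *Atp6v0d2*. *Ackr3* was most like *Lurap1l* at 0.90 (0.64), *Olfml1* and *Gm13703*, *Cmklr1* like *Tfdp2* at 0.80 (0.79), *Fry* and *Mst1r*, and *Ackr1* like *Rabif* at 0.81 (0.34), *Tmsb10* and *Car8*. For *Ackr1* and *Cxcr4* the likeness lay more between than within groups. In the genome (GRCm38), 5 of the 9 are on chromosome 9 (*Ccr1*, *Ccr2*, *Cx3cr1*, *Cxcr6*, *Ccrl2*), 3 on chromosome 1 (*Cxcr4*, *Ackr1*, *Ackr3*) and *Cmklr1* on chromosome 5. *Ccr1* (chr9:123962124-123968692, minus strand), *Ccr2* (chr9:124101950-124113557, plus strand) and *Cxcr6* (chr9:123806475-123811760, plus strand) lie close together, with *Ccrl2* at chr9:111054486-111057519 and *Cx3cr1* at chr9:119901616-120069879, both on the minus strand. *Cxcr4* (chr1:128588199-128592293, minus strand), *Ackr1* (chr1:173331886-173333750, minus strand), *Ackr3* (chr1:90203980-90216751, plus strand) and *Cmklr1* (chr5:113612354-113650426, minus strand) are farther apart. *Cxcr6* lies within the span of *Fyco1* on the other strand without shared exons.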

How the data were processed

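RNA was sequenced from 14 eWAT and 11 iWAT libraries of male mice, 1 library per sample, with groups taken from the sample labels. The authors removed adaptors with cutadapt, aligned reads with STAR to GRCm38 (mm10 in the labels), kept uniquely aligned reads and deposited read counts for 54752 genes in each library, with strand-specific mRNA libraries. The counting program and its strand setting are not given in the sources used here. The authors also deposited FPKM values per kilobase of cDNA length, which matched values recomputed from the counts to within 0.0005, and FPKM per reads on genes was used for levels and ratios. Reads outside genes (6.41% to 11.9%) and ambiguous reads (1.52% to 2.07%) were left out of library sizes. Depth ran from 31405063 to 52335623 reads on genes per library (median 42088309).

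Counts were normalised by TMM and tested with edgeR 4.0.16 (quasi-likelihood, R 4.3.3) in 1 fit per depot and 1 joint fit over both depots, on genes whose mean over the fitted libraries reached 1 CPM, with Benjamini-Hochberg adjustment over all 14936 (eWAT), 14801 (iWAT) or 15034 (joint) genes and a threshold of 0.1. Depot comparisons and interactions came from the joint fit. The fits were also run on simulated counts in which few genes were changed. That setting differs from the diet comparisons here, so the run does not show how the fits behave in them. Alternatives were DESeq2 1.42.0, its size factors in edgeR, other filters, a threshold of 0.05, a replicate block, the groups compared only, the library series, and each library left out in turn. Leaving out libraries with high epididymis, muscle or skin markers, and the FPKM ratios with their 8 exact permutation tests (scipy 1.17.1), of which 4 are not reported here, were added after seeing the data. The members, lists and marker genes were chosen with earlier results of these data known. Named were all 9 members, their ligands, up to 8 called genes by mean CPM from the lists of 26 other receptors and 17 ligands, and the 3 genes most correlated with each member. All 9 members were matched by symbol to RefSeq promoter sequences of GRCm38.p6.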

Additional observations from a re-analysis of the deposited data

Results flagged for a closer look

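In 3 of the 36 combinations of receptor and group with 4 or 5 libraries, 1 library lay far from the others of its group, and chance alone gives about 1 in 20. *Cxcr4* stood at 34.8 CPM in eWAT WT HFD 1, against 10.3 to 13.9 CPM in the other 4 libraries. *Ccrl2* stood at 6.14 CPM in the same library, against 4.91 to 5.07 CPM, and at 4.63 CPM in eWAT *Acod1*-/- HFD 5, against 1.74 to 2.51 CPM. Summed macrophage markers were highest of their groups in both libraries (3390 and 1085 CPM), and their part was not tested.

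The diet change differed between depots, by the interaction term of the joint edgeR fit, for 5 receptors. As eWAT minus iWAT on the log2 scale the differences were 3.64 for *Cxcr6*, 3.06 for *Cxcr4*, 2.11 for *Cx3cr1*, -1.36 for *Ackr3* and -0.98 for *Cmklr1*. The lymph node markers of the 3 iWAT ND libraries enter each of these differences, and their part was not tested.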

How the results depend on the processing

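Of the 9 receptors, 7 were called with diet in eWAT, and 4 at an adjusted p under 0.05, 4 without a filter on low counts, 3 with the library series as a term and 4 without the libraries with high epididymis markers. Leaving out 1 library gave 3 to 7, with 4 without ND 2, ND 4 or WT HFD 4 and 3 without ND 3. With genotype in eWAT, 2 were called, against 3 by DESeq2 (1 higher and 2 lower) and 1 at the stricter threshold. The count was 1 without a filter and 4 among the HFD libraries of the lower-numbered series. Leaving out 1 library gave 0 to 3, with 0 without WT HFD 4 and 1 without WT HFD 1 or *Acod1*-/- HFD 1, 2, 3 or 4. For knockouts on HFD against ND in eWAT, the 1 call became 0 without a filter, 0 with the series term and 3 in a fit of the groups compared only. Leaving out 1 library gave 0 to 2, with 0 without ND 2, ND 3 or *Acod1*-/- HFD 2 and 2 without ND 1 or WT HFD 1. A filter of 1 CPM in every library tested fewer receptors and called 3 against 6 with diet in iWAT, 2 against 4 for knockouts against ND in iWAT, 3 against 5 between depots on ND, and 3 against 5 for the difference in diet change between depots. Without the libraries with high muscle or skin markers, 5 were called higher and 3 lower with diet in iWAT, against 3 and 3. Leaving out 1 library gave 5 to 7 calls for that comparison. DESeq2 called 1 receptor against 0 with genotype in iWAT. Between depots in WT HFD mice 2 were called, against 1 at the stricter threshold, 1 without a filter, 1 with the filter in every library and 4 by DESeq2, and leaving out 1 library gave 1 to 3, with 1 without eWAT WT HFD 1 or iWAT WT HFD 1 or 3. No result changed its sign while called. Of 2634 values of single receptors under the alternatives, 2515 kept their direction and side of the threshold, 73 lost a call and 46 gained one. The causes were not tested. The deviations of same-numbered libraries from their group means correlated at -0.304 to 0.489, and in no comparison were all pairs above 0.1, so the numbers were not taken to pair the libraries. Some pairs did correlate (0.489 and 0.343 for WT HFD 4 and 1 across depots), and whether these share a mouse is not known from the labels. With the replicate block 5 receptors were called with diet in eWAT, 3 with genotype in eWAT, 6 between depots on ND, 3 between depots in WT HFD mice and 6 for the difference in diet change. For receptors near 1 CPM, such as *Cxcr6* with 13 reads in its lowest library, depth limits the precision.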
